A study of Rattus norvegicus with 6 samples.

Results

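In the transcript tables of rat corneal epithelium, many loci have a strand but no annotated transcript type, and some of them sit on the same strand as a protein-coding gene that has a row of its own. These loci, called sense fragments here, were taken as all rows without a transcript type, on the plus or minus strand, that share at least 1 base with a row typed protein_coding on that strand and have a mean FPKM (fragments scaled by the length of the locus and the reads of the library) of at least 0.5 over the 6 libraries. The rule kept 2207 sense fragments of 61453 loci, or 3.59%. Of 2283 sense fragments at any level, 76 fell under the minimum, and 20 of these had no count in any library. The fragment nearest above the minimum, MSTRG.20127 in *Mllt10*, had a mean of 0.501 FPKM, and the nearest below, MSTRG.37971, had 0.483. Each fragment is given by the locus ID of the files and by its host, the overlapping protein-coding row that shares the most bases with it.

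The libraries hold total RNA of corneal epithelium scraped from male Brown Norway rats. In the diabetic group (STZ), rats had received 1 intraperitoneal injection of streptozocin at 50 mg/kg, and in the normal group (NOR) citrate buffer, and tissue was taken after 16 weeks. Each group has 3 libraries, with total counts from 62288901 to 87040253. Streptozocin kills the insulin-producing cells of the pancreas, so the model is one of insulin lack, and how corneas were joined into libraries is not stated in the labels or the methods. The p-values measure only the spread between these libraries. The epithelial marker *Krt12*, a keratin of this epithelium, lay between 3660 and 4455 FPKM in the 6 libraries. *Aldh3a1*, its abundant crystallin-like dehydrogenase, lay between 9143 and 10326 FPKM, while the lens gene *Cryaa* ranged from 1.23 to 595 FPKM. The stromal gene *Lum* had 148 to 172 FPKM in normal and 102 to 123 FPKM in diabetic libraries. The part of such other tissue in the results was not tested.

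A protein-coding gene is transcribed as a long precursor whose introns are spliced out, and reads of a total RNA library can come from the mature transcript, from introns still present in the precursor, or from other transcripts of the same region. An assembler that builds transcripts from aligned reads reports as separate loci the pieces that it cannot join to a known transcript. The prefix MSTRG is the one such programs give to merged loci. No genome of the build of the files (rn6) was used here, so whether a fragment lies in an exon, an intron or a UTR of its host was not analysed here. Neither the labels nor the methods say whether the libraries kept strand information, and without it reads of the 2 strands cannot be told apart.

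Fragments varied widely in span, and most were 1 stretch. The span from first to last base had a median of 2705 bases (lower and upper quartile 706 and 9783) and ran from 200 to 709661 bases. Of the 2207 fragments, 683 spanned under 1000 bases and 544 over 10000. The length over which reads were counted, worked out from the ratio of count to FPKM, had a median of 1464 bases. In 1341 fragments (60.8%) the counted length equalled the span within 5%, so that they form 1 uninterrupted stretch, with a median span of 1160 bases. In 861 (39.0%) the counted length was shorter than the span, as in a locus of separate blocks, and the median span there was 9100 bases with 1847 counted. In 306 fragments the counted length was under 10% of the span. A further 5 had a counted length above the span by more than 5%. Only 206 of the fragments had more than 1 transcript.

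Fragments sat mostly within their hosts. Of the 2207, 1953 (88.5%) lay wholly inside the host's span, 68 ran past its 5′ end only, 79 past its 3′ end only, and 107 covered the host from end to end. Among stretches of 1 block 99.2% lay inside, and among fragments of several blocks 71.8%. With the host cut into 5 equal parts from its 5′ to its 3′ end, the midpoints of 525, 478, 383, 335 and 232 of the inside fragments fell in successive parts, so that 26.9% lay in the first part and 11.9% in the last. The files give 1818 fragments the name of their host, give 163 the name of another gene or of several joined, and leave 226 unnamed. The 107 fragments that covered their host had a median span of 81582 bases against 6354 for those hosts, and 35 of them had a host under 0.5 FPKM.

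**Figure D1:**
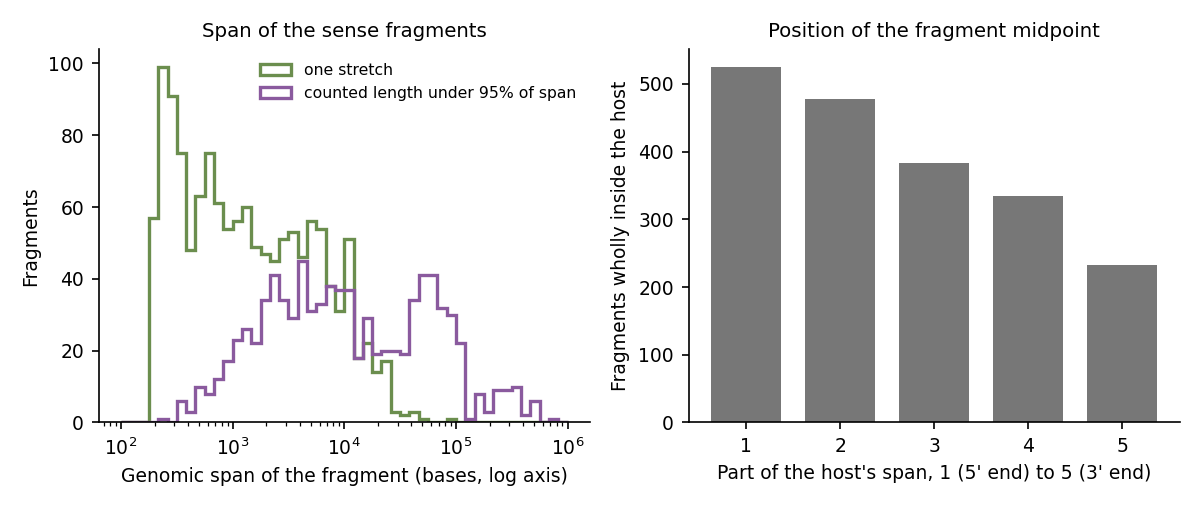
Left, number of sense fragments by genomic span (bases, log axis) for fragments of 1 stretch and for fragments whose counted length is under 95% of the span; right, number of fragments wholly inside the host by which of 5 equal parts of the host, counted from its 5′ end, holds their midpoint. The stretches peak near the short end of the axis, and the bars fall from 525 in the first part to 232 in the last.

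The fragments belonged to 1594 host genes. A single fragment was found in 1196 hosts, 258 hosts held 2, 96 held 3 and 44 held 4 or more, with at most 12. Of the 11570 protein-coding loci with a mean of at least 0.5 FPKM, 1523 (13.2%) were hosts. Hosts were long genes: their median span was 67844 bases, against 18874 bases for the 10047 loci that hosted none, and the counted share of the span had a median of 10.8% against 19.4%. The levels of hosts and other loci were close, with medians of 4.83 and 4.61 FPKM.

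The 5 hosts with the most fragments show how such fragments line up in 1 gene. The locus of *Auts2*, a regulator of transcription in neurons whose row joins 3 names and spans chr12:27155385-28253976, held 12 fragments between 1.30 and 5.15 FPKM, or 0.216 to 0.858 of the host level. *Camk1d*, a calmodulin-dependent kinase, held 9 fragments between 2.49 and 16.5 FPKM, and the host itself had 13.4 FPKM. *Arl15*, a small GTPase at 3.43 FPKM, held 8 fragments between 0.619 and 6.81 FPKM. *Tlk2*, a kinase that acts in chromatin assembly, had 1.87 FPKM and held 8 fragments, all 1 stretch each and all above the host, with ratios from 1.40 to 5.89. LOC103693129 held 7, from 2.09 to 12.0 FPKM. None of these fragments passed the test between the groups that is described further on. Fragments of 1 host lie in the same gene and were not taken as independent. The log2 fold change was positive in 9 and negative in 3 of the fragments in *Auts2*, positive in 5 and negative in 4 in *Camk1d*, positive in all 8 in *Arl15* and all 7 in LOC103693129, and negative in 7 of 8 in *Tlk2*. In this set of 5 hosts a single fragment, MSTRG.43481 in LOC103693129, had groups without overlap in FPKM, where 9.66% of all loci had such groups. Its counts did overlap, at 269, 179 and 255 in normal and 360, 224 and 329 in diabetic libraries.

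Sense fragments were of low abundance with a few exceptions. The median of the mean FPKM was 2.48 (quartiles 1.72 and 3.96). Of all 2207, 1816 lay under 5 FPKM, 89 of them under 1, and 109 reached 10. Together they held 3.24%, 3.35% and 3.63% of the counts of the normal libraries and 3.22%, 3.15% and 3.33% of those of the diabetic libraries. The groups overlapped in this share, and diabetic libraries were lower by 0.175 percentage points on average (two-sided exact permutation test, p = 0.2, n = 3 and 3, smallest possible p 0.1). The difference was -0.0637 without normal replicate 3, -0.0506 for fragments wholly inside the host and -0.424 for the share of summed FPKM. The 10 fragments of highest FPKM took 16.6% to 21.0% of these counts, and without them the share was 2.62% to 2.87% in normal and 2.63% to 2.68% in diabetic libraries.

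The most abundant fragment by far was MSTRG.37957, at chr6:75579839-75614394 on the minus strand, which overlaps *Eapp*, the gene of an E2F-associated phosphoprotein, and runs past its 5′ end. Its counts were 127024, 156631 and 162769 in the normal and 146032, 35774 and 182850 in the diabetic libraries, over about 300 counted bases of a span of 34556. Its mean was 5212 FPKM, 419 times the 12.4 FPKM of its host, and diabetic replicate 2 stood well under the other libraries. The next was MSTRG.26747, a 331-base fragment that the files name RT1-CE7, a class I gene of the rat major histocompatibility complex, inside the row AABR07044408. It had 263 FPKM on average and 3245 to 11432 counts, while its host had 3 to 10 counts.

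A block on chromosome 14 held several of the abundant fragments. Between bases 46517584 and 46687968 there were 7 sense fragments, all larger than the small predicted genes they cover, and on both strands. The files name some of them Rn5-8s, a symbol of ribosomal RNA. The largest, MSTRG.15017, had 245804, 250814 and 260763 counts in normal and 181093, 210325 and 172381 in diabetic libraries. MSTRG.15031, in the same block, had 2391, 2004 and 48317 counts in normal and 10611, 812 and 1980 in diabetic libraries, so normal replicate 3 held most of its reads. In that library the whole block took 15.6% of the counts in sense fragments, and in the others 10.2% to 13.5%. Others of high level were MSTRG.37486 in AABR07063424, with 553 counts in normal replicate 3 against 8302 to 20124 in the other libraries, MSTRG.1786 in AABR07000398, with 1571 to 13458 counts, and MSTRG.5687 in *Mark2*, a kinase of microtubule-binding proteins, with 1111 to 1904 counts and 45.9 FPKM.

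Per kilobase, fragments were usually less abundant than their hosts. For 87 fragments the host had a mean under 0.5 FPKM, and 16 of these hosts are listed at 0 in every library. In the other 2120 pairs the ratio of the mean FPKM of fragment and host had a median of 0.621 (quartiles 0.348 and 1.03). The fragment was under the host in every library in 1231 pairs (58.1%) and above it in every library in 268 (12.6%), and the remaining 621 pairs lay on both sides. The median ratio per library was 0.600, 0.598 and 0.662 in normal and 0.605, 0.561 and 0.605 in diabetic libraries. Since hosts are longer, the counts were more unequal: the median fragment had 0.120 times the count of its host, and 162 fragments had more counts than the host. Stretches of 1 block had a median ratio of 0.791 and fragments of several blocks 0.379. Along the host the median ratio moved little, from 0.619 in the most 5′ of the 5 parts to 0.746 in the most 3′, with 0.602 to 0.649 between.

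The pairs in which the fragment was higher in every library were short fragments in weak hosts. Their median span was 629 bases, their median level 5.71 FPKM and that of their hosts 2.63 FPKM, and 82.8% were 1 stretch. Where the fragment was lower in every library the median span was 4272 bases, and the levels were 2.11 FPKM for fragments and 6.0 for hosts. Only 9 fragments had a ratio over 10, and 36 had one under 0.1. Beside *Eapp* and the loci of predicted genes, the high ratios included MSTRG.21213 in *Gnal*, a G protein subunit of olfactory signalling, with 21.1 FPKM against 1.15 (ratio 18.2). Its counts were 7981, 9508 and 10617 in normal and 11422, 5781 and 6443 in diabetic libraries, and the groups overlapped. MSTRG.32612 in *Adamts9*, a secreted metalloprotease, had a ratio of 20.3 but 76 to 1179 counts, so its level was not stable between libraries. MSTRG.10777 in *Iqcg* had a ratio of 9.12, with 193 to 295 counts.

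The 5 lowest ratios were found in hosts of 17.2 to 121 FPKM. As fragments had to reach 0.5 FPKM, so low a ratio was possible only in a host of high level. MSTRG.42507 in *Aplp2*, a relative of the amyloid precursor protein, had 1.44 FPKM against 121 for the host, a ratio of 0.0118. The ratio was 0.0232 for MSTRG.41276 in *Plec*, which codes for plectin, a linker of keratin filaments to hemidesmosomes, and 0.0359 for MSTRG.30663 in *Atp9a*, a lipid flippase. It was 0.0401 for MSTRG.35754 in *Ptprf*, a receptor tyrosine phosphatase, and 0.0426 for MSTRG.5782 in *Ahnak*, a giant scaffold protein.

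**Figure D2:**
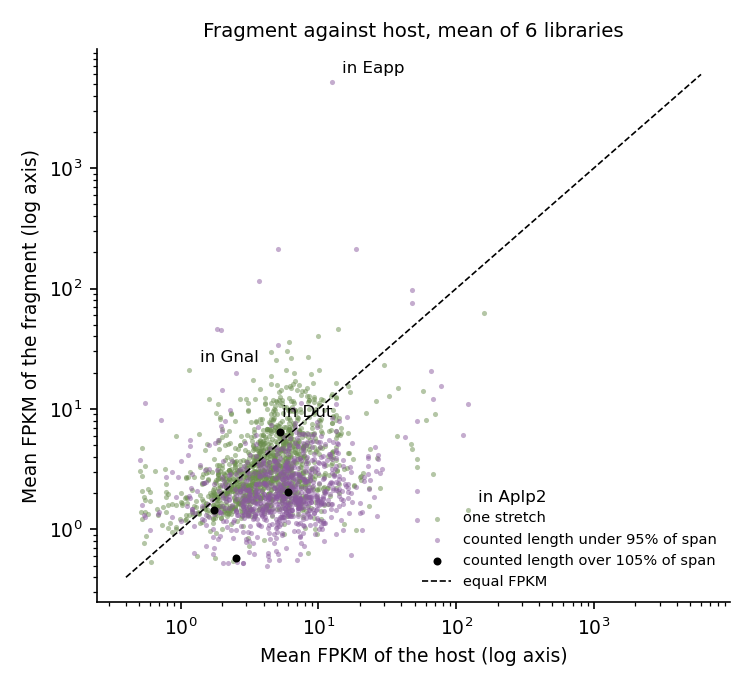
Mean FPKM over the 6 libraries of each sense fragment (vertical, log axis) and of its host (horizontal, log axis) for the 2120 pairs whose host reached 0.5 FPKM, with the line of equal values dashed. Points lie on both sides of the line with the larger number under it, and the fragment in *Eapp* stands apart at 5212 FPKM.

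Few sense fragments lacked counts in a library, and most of those had over 100 counts in another. A count of 0 was found in at least 1 library for 43 fragments, or 1.95%, where 5.46% of all 42551 loci with a mean of at least 0.5 FPKM had one. A count of 0 allows a level of up to 3 counts, which is 0.0345 to 0.0482 CPM (counts scaled to the library total) in these libraries, from counting error alone. Of the 43, 25 were at 0 in 1 library, 10 in 2, 5 in 3 and 3 in 5. The number at 0 was 9, 15 and 13 in normal and 14, 15 and 9 in diabetic libraries, with overlapping groups (mean of diabetic minus normal libraries 0.333 fragments, two-sided exact permutation test, p = 1, n = 3 and 3). Zeros stood in normal libraries only for 15 fragments, in diabetic libraries only for 15 and in both groups for 13. Of the 43, 32 had over 100 counts in another library. Hosts of zinc finger proteins of the Zfp series, which are transcription factors, had 5 of their 45 fragments in this set.

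In most of these cases the host did not follow. For 28 of the 32 fragments with over 100 counts elsewhere, the host reached 0.5 FPKM, and its level in the libraries without fragment counts was 0.985 times its level in the others (median). It was within 1.5 times for 25 of the 28, from 0.715 to 1.29. The exceptions included MSTRG.18248 and MSTRG.18249 in a row that joins *Poteg* with other names: both fragments were at 0 in normal replicate 3, where the host had 82 counts against 38825 to 73442 elsewhere.

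The extreme case was MSTRG.41907, which spans chr7:140904425-141250537, covers *Faim2*, a gene that protects cells from Fas-driven death, and carries the name *Fmnl3* in the files. It had 16040 counts in diabetic replicate 1 and 0 in the other 5 libraries. A locus at its edge named U1, the spliceosomal small nuclear RNA, had 917 counts in diabetic replicate 1 and 9055 to 15670 in the others. MSTRG.12239 in *Vps37b*, a subunit of the endosomal sorting machinery, had 558 counts in normal replicate 1 only, and MSTRG.40786 in *Slc25a32*, a mitochondrial folate carrier, had 431 in normal replicate 3 only. In *P3h2*, an enzyme that hydroxylates collagen prolines, MSTRG.10904 had 8855, 1177 and 0 counts in normal and 11941, 3056 and 1306 in diabetic libraries. The neighbouring MSTRG.10906 had 160, 0 and 609 in normal and 1406, 171 and 1068 in diabetic libraries, and the zeros of both fell in different libraries. MSTRG.9947 in *Nrip1*, a corepressor of nuclear receptors, had 24, 2836 and 542 in normal and 248, 0 and 133 in diabetic libraries. MSTRG.4967 in *Zfp629* was at 0 in replicate 1 of both groups and had 1011 to 2424 counts in the others. In *Zfp266*, MSTRG.42287 was at 0 in normal replicate 2 and in diabetic replicates 2 and 3, and had 1827 to 2252 counts elsewhere. In none of these did the groups part. In *Senp1*, a SUMO protease, MSTRG.41847 had 149, 0 and 0 counts in normal and 257, 144 and 197 in diabetic libraries, and scaled to FPKM its groups did not overlap.

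**Figure D3:**
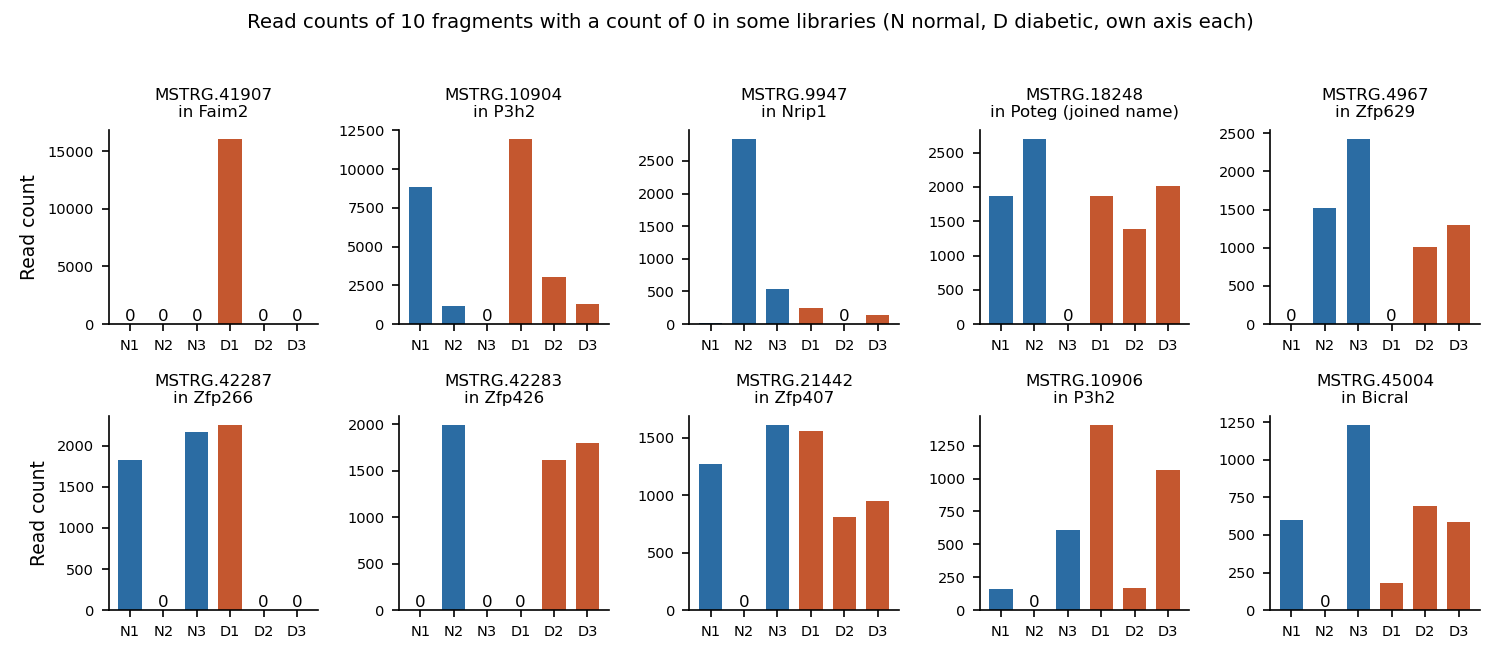
Read counts (vertical, linear, own scale in each panel) in the 3 normal (N1 to N3) and 3 diabetic (D1 to D3) libraries for the 10 sense fragments of highest count among those with 0 in some library and over 100 in another. Zeros are marked, and they fall in libraries of either group.

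Against other classes the share of zeros lay between that of typed genes and that of other untyped loci. Among loci of at least 0.5 FPKM, 0.778% of 11570 protein-coding loci, 3.47% of 3599 untyped loci antisense to a coding gene and 6.54% of 3380 untyped stranded loci outside coding genes had a count of 0 in some library. Per library the share at 0 was 0.408% to 0.680% for sense fragments. It was higher by 0.352 percentage points than for protein-coding loci, lower by 0.855 points than for antisense loci and lower by 1.51 points than for loci outside genes, in 6 of 6 libraries each time (two-sided exact sign-flip permutation test over libraries, p = 0.031, adjusted p = 0.031 over the 3 comparisons, the smallest possible with 6 libraries). Levels differed between these classes: the median FPKM was 2.48 for sense fragments, 4.63 for protein-coding loci, 2.53 for antisense loci and 1.98 for loci outside genes. The part of level in the share of zeros was not tested.

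Sense fragments also varied more between libraries than their hosts did. The standard deviation within groups of the normalized log2(FPKM + 1) had a median of 0.229 for sense fragments, 0.158 for protein-coding loci, 0.220 for antisense loci and 0.264 for loci outside genes. In 1502 of the 2120 pairs (70.8%) the fragment varied more than its host, with medians of 0.226 and 0.143. The median fragment had 0.621 times the FPKM and 0.120 times the count of its host. The part of level and count in this spread was not tested.

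Many fragments shared their place with an untyped fragment on the other strand. Of the 2207, 473 (21.4%) overlapped one, and for 128 (5.80%) the overlap covered at least 50% of both. At 90% or more there were 47 pairs. In 2 of these 47 the counts of both strands were within 5% of each other in all 6 libraries, and in 13 in at least 1 library. MSTRG.22200 in *Nfat5*, the transcription factor that answers osmotic stress, had 1221, 872, 1336, 934, 981 and 1222 counts in normal replicates 1 to 3 and diabetic replicates 1 to 3. Its opposite, MSTRG.22201, had 1221, 875, 1336, 935, 981 and 1224. In *Ncoa2*, a coactivator of nuclear receptors, MSTRG.33916 and MSTRG.33915 held the same count in 5 of 6 libraries and 1010 and 1011 in normal replicate 2. In these pairs the levels of the strands cannot be told apart.

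Opposite fragments also stood where a sense fragment had no counts. Of the 43 fragments at 0 in some library, 24 overlapped an opposite fragment, 11 of them by at least 50% of both. In 9 of these 11 the opposite fragment had counts in every library in which the sense fragment was at 0. MSTRG.42283 in *Zfp426* had 0, 1991 and 0 counts in normal and 0, 1619 and 1794 in diabetic libraries, and the opposite MSTRG.42284 had 2243, 1991, 2223, 2317, 1619 and 1794, the same number wherever both had counts. In *Zfp407*, MSTRG.21442 was at 0 in normal replicate 2, where the opposite MSTRG.21441 had 1278 counts, and in the other libraries the counts of both were within 5%. In *Zfp266*, the opposite MSTRG.42288 had 3633, 5577 and 3289 counts in normal and 2760, 4634 and 3958 in diabetic libraries. It thus had counts in the 3 libraries where MSTRG.42287 was at 0. In *Vps37b* the single library with counts, normal replicate 1, had 558 on either strand, and the opposite MSTRG.12238 had 228 to 749 in the rest. For MSTRG.10904 in *P3h2* the opposite MSTRG.10905 had 0, 8940 and 0 counts in normal and 3263, 7587 and 10033 in diabetic libraries, so that in normal replicate 3 neither had any. In *Ahdc1*, MSTRG.36175 had 380, 0, 0, 0, 712 and 307 counts and MSTRG.36176 had 0, 1548, 0, 711, 0 and 0, with no library in which both had counts.

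**Figure D4:**
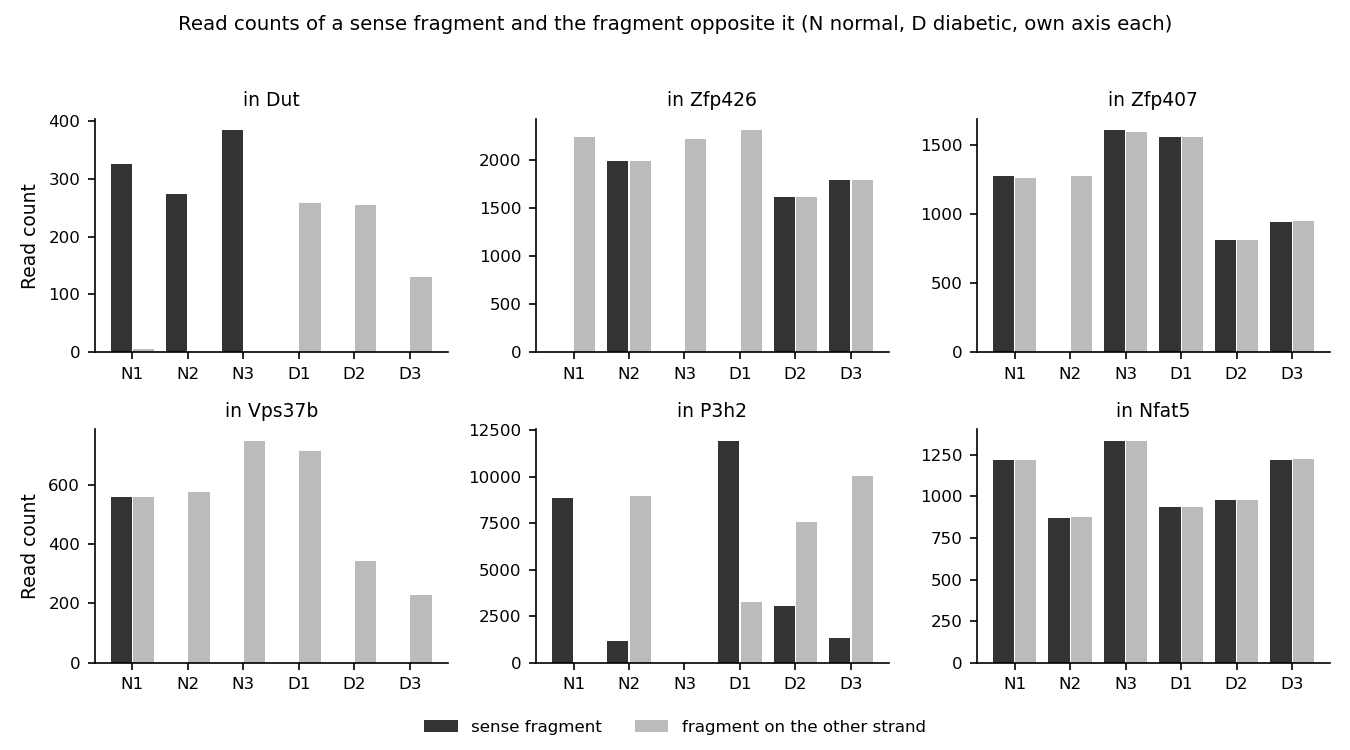
Read counts (vertical, linear, own scale in each panel) of a sense fragment (dark) and of the untyped fragment opposite it (light) in the normal (N1 to N3) and diabetic (D1 to D3) libraries, for 6 hosts. In *Nfat5* both bars match in every library, in *Zfp426*, *Zfp407* and *Vps37b* they match where both are present, and in *Dut* the dark bars stand in the normal and the light bars in the diabetic libraries apart from 5 opposite reads in normal replicate 1.

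The question of the design is which transcripts differ between STZ and NOR. In limma, on quantile-normalized log2(FPKM + 1) over all 42551 loci with a mean of at least 0.5 FPKM, the threshold was an adjusted p (Benjamini-Hochberg) below 0.05 together with a change of more than 1.2-fold. By this rule 1 of the 2207 sense fragments passed, 0.0453%, against 0.0259% of all loci (0.00705% lower in diabetic libraries), and it was lower in diabetic libraries. With the quasi-likelihood test of edgeR on counts it was again 1, against 0.0141% of all loci, and with DESeq2 6 (4 higher, 2 lower), 0.272% against 0.233% of all loci. At an unadjusted p under 0.05 with the same fold limma gave 110 fragments, 4.98% against 4.75%, of which 55 were higher and 55 lower, and without diabetic replicate 1 it gave 242, 10.97% against 9.26% of all loci. Fold changes were centred near 0: the log2 fold change was above 0 in 1021 fragments and under 0 in 1186, and its median was -0.0167 against -0.0049 over all loci.

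The fragment that passed was MSTRG.29626, a stretch of 248 bases at chr3:117516290-117516537 on the plus strand, inside *Dut*, the gene of the enzyme that breaks down dUTP and so keeps uracil out of DNA. Its counts were 327, 274 and 385 in normal libraries, while each of the 3 diabetic libraries had 0, so the groups did not overlap. In FPKM this was 14.6 ± 2.00 (SD, n = 3) in normal libraries and 0 in diabetic ones. In CPM it was 4.16 ± 0.582 in normal libraries, at least 96.4-fold lower in diabetic libraries when 3 counts per library stand for 0. The fitted log2 fold change of -3.95 (SE 0.13, limma adjusted p = 0.000207) depends on the pseudocount. The adjusted p was 0.0273 in edgeR and 2.28e-14 in DESeq2. The host *Dut* had 3654, 3419 and 4554 counts in normal and 4714, 2445 and 1969 in diabetic libraries, with a log2 fold change of -0.21 (limma adjusted p = 0.956). No other sense fragment had 0 counts in one group and at least 50 in each library of the other, a pattern seen in 0.0188% of all loci. The fragment reached the minimum level through the normal libraries alone.

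In *Dut* too there was a fragment on the other strand. MSTRG.29627, of 362 bases at chr3:117516296-117516657, shares 242 bases with MSTRG.29626, at least 66.9% of either. It had 5, 0 and 0 counts in normal and 259, 255 and 131 in diabetic libraries, with a log2 fold change of 3.07 (SE 0.24, limma adjusted p = 0.0170), while edgeR gave an adjusted p of 0.310 and DESeq2 one of 9.12e-15. It reached the minimum level through the diabetic libraries alone. Summed over both strands the counts were 332, 274 and 385 in normal and 259, 255 and 131 in diabetic libraries. The sum had a log2 fold change of -0.82 (SE 0.23) in limma, on summed FPKM of loci of unlike length, and of -0.42 in edgeR, on summed counts. It did not pass in limma (unadjusted p = 0.00761, adjusted p = 0.952) or in edgeR (unadjusted p = 0.205, adjusted p = 0.991). Each of the 128 fragments with an opposite fragment of at least 50% overlap was also summed with it, and limma and edgeR called 0 of these sums. Of all 2207 fragments limma then called 0, and of all 42452 loci in that fit it called 7. An unadjusted p under 0.05 with the fold was found for 111 fragments, or 5.03%. The share over all loci was not worked out for that fit, and it was 4.75% without the summing. Counts at this place in *Dut* were thus present in all 6 libraries, in the normal libraries almost wholly under the plus-strand locus and in the diabetic libraries under the minus-strand locus alone.

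**Figure D5:**
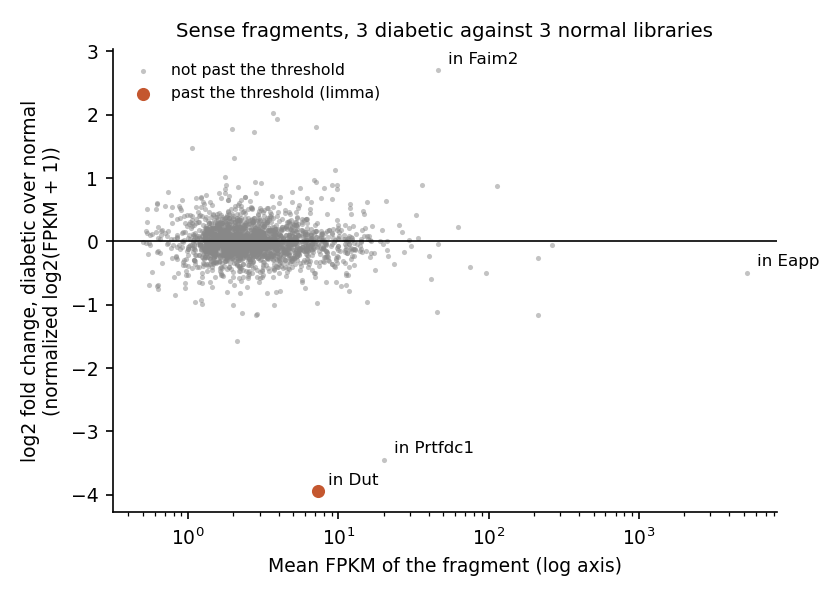
Log2 fold change of diabetic over normal libraries, from normalized log2(FPKM + 1) (vertical), against the mean FPKM (horizontal, log axis) of the 2207 sense fragments. The fragment in *Dut* at -3.95 is the one past the threshold in limma, and those in *Prtfdc1* and *Faim2*, at -3.45 and 2.70, are not.

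The other 5 fragments that DESeq2 called did not pass in limma or edgeR, where their adjusted p-values ran from 0.552 to 0.953 and from 0.832 to 0.991. MSTRG.22551 in *Hsd17b2*, a dehydrogenase that inactivates sex steroids, had 249, 423 and 442 counts in normal and 1009, 891 and 765 in diabetic libraries, without overlap. Its log2 fold change was 0.90 (SE 0.17) in limma and 1.46 in DESeq2 (adjusted p = 0.0001). The opposite MSTRG.22550 had 850, 809 and 1287 counts in normal and 1249, 968 and 781 in diabetic libraries. MSTRG.9878 in AABR07031089 had 285, 285 and 365 counts in normal and 586, 490 and 569 in diabetic libraries, with 0.85 (SE 0.13) in limma and a DESeq2 adjusted p of 0.00503. MSTRG.12704 in LOC304725 had 2, 2 and 2 counts in normal and 51, 40 and 17 in diabetic libraries (DESeq2 adjusted p = 0.00745), and it reached the minimum level through the diabetic libraries alone. MSTRG.31613 in *Ube2h*, a ubiquitin-conjugating enzyme, had 2715, 2608 and 2759 counts in normal and 11344, 2550 and 5970 in diabetic libraries (DESeq2 adjusted p = 0.0171). In FPKM it had 1.68 to 1.72 in normal and 6.53, 2.05 and 4.63 in diabetic libraries, without overlap. The opposite MSTRG.31609 had 12972, 13139 and 18844 counts in normal and 9697, 17725 and 7580 in diabetic libraries. It was thus lowest in diabetic replicates 1 and 3, where MSTRG.31613 was highest. The overlap of both was 24.3% of the longer locus. MSTRG.20168 in *Prtfdc1*, a relative of the purine salvage enzyme Hprt, had 855, 128 and 1179 counts in normal and 8, 26 and 56 in diabetic libraries (DESeq2 adjusted p = 0.0416). Its groups did not overlap, but the normal libraries spread over 128 to 1179, and limma gave -3.45 with an SE of 0.77.

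Groups without overlap were found for 82 fragments higher and 142 lower in diabetic libraries. Together they were 10.1% of fragments, against 9.66% of all loci. By direction they were 3.72% and 6.43%, where 3.94% and 5.72% of all loci had groups without overlap in those directions, and neither share stands far from its background. Among those of smallest p, beside the ones above, MSTRG.14749 in *Noa1*, a mitochondrial GTPase, had 83, 67 and 94 counts in normal and 28, 31 and 13 in diabetic libraries (log2 fold change -1.15, SE 0.21, limma adjusted p = 0.901). MSTRG.46255 in *Capn10*, a calpain protease, had 299, 288 and 244 against 172, 125 and 131 (-0.58, SE 0.13, adjusted p = 0.953). MSTRG.6416 in *Mms19*, which delivers iron-sulfur clusters to DNA repair enzymes, had 78, 91 and 78 against 34, 23 and 48. MSTRG.11860 in LOC100910838 had 63, 55 and 58 against 131, 68 and 87. MSTRG.3608, in the row of the pheromone receptor *Vom1r70*, which is itself listed at 0 in all libraries, had 38, 115 and 5 against 791, 246 and 573 (1.78, SE 0.29, limma adjusted p = 0.74) and reached the minimum level through the diabetic libraries alone. None of these passed the adjusted threshold in limma or edgeR.

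The ratio of fragment to host asks whether a fragment moved apart from its gene. In limma on the log2 difference between fragment and host, 1 of the 2120 pairs passed, 0.0472% of pairs. It was the fragment in *Dut* (log2 change of the ratio -3.74, adjusted p = 0.000491). That ratio rests on the same 0 counts of MSTRG.29626 in the diabetic libraries as the test above, so it is no separate support. In those libraries the counts lay under MSTRG.29627 on the other strand. The median change was -0.0539, with 848 pairs positive and 1272 negative. The ratio did not overlap between the groups in 64 pairs where it was higher and 119 where it was lower in diabetic libraries, 3.02% and 5.61% of pairs. At an unadjusted p under 0.05 with the fold there were 81, or 3.82%, and without diabetic replicate 1 there were 170, or 8.02%. All pairs here were sense fragments, so no share over other loci stands beside these counts or signs. A wider fit, chosen after seeing the data, also held loci without strand. In it 65 sense fragments had such an unadjusted p, 3.07% against 4.48% of all 9086 pairs. In the fit of sense fragments alone, the next smallest p after *Dut* belonged to AABR07031089 (0.86, adjusted p = 0.596) and *Noa1* (-1.24, adjusted p = 0.85). In some pairs of small p the host had the larger change. In *Atp10b*, a lipid flippase, the counts of MSTRG.7487 were 467 to 708 and those of the host 272, 313 and 427 in normal and 588, 696 and 512 in diabetic libraries, with a ratio change of -0.53 (adjusted p = 0.982). In LOC100910838, MSTRG.11843 had 113 to 201 counts, and the ratio change was -0.66 with the host at 0.54 on the log2 scale. In *Ergic2*, a cargo protein of early secretion, MSTRG.33783 had 43, 426 and 726 counts in normal and 1066, 577 and 669 in diabetic libraries, and in LOC108348180, MSTRG.14775 had 1378, 747 and 403 against 1605, 1128 and 1501.

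Over all the gene lists, of the tissue, of other cell types and of diabetes, 35 fragments had a host in a list. Of these, 0 passed in limma, in DESeq2 or in edgeR. The unadjusted limma p was under 0.05, with the fold, for 2 of them (5.71%), where 4.75% of all loci had such a value. Of 31 corneal epithelial genes, 25 of them with a row, 2 were hosts, with 3 fragments. MSTRG.10911 in *Tp63*, the master regulator of stratified epithelia, had 7825, 7243 and 10290 counts in normal and 9218, 7123 and 6780 in diabetic libraries, 0.445 times the level of its host. The fragments in *Grhl2*, a regulator of epithelial junction genes, had 2.97 and 1.76 FPKM. Of 40 genes of junctions and anchoring, 35 of them with a row, 5 held 6 fragments, 1 positive and 5 negative. Among them were the tight junction gene *Tjp3* (MSTRG.39581, 40.1 FPKM, 4.03 times the host), *Itga6*, an integrin of hemidesmosomes (MSTRG.28651, 9.11 FPKM, log2 fold change -0.36), and *Ocln*, which codes for occludin (MSTRG.23334, 12.7 FPKM). *Slc4a4*, the bicarbonate transporter used as an endothelial marker, held 4 fragments of 0.969 to 1.95 FPKM, all with a negative log2 fold change between -0.31 and -0.03.

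Of 34 genes of insulin signalling and glucose handling, 31 of them with a row, 8 held 1 fragment each. MSTRG.24492 in *Foxo1*, the transcription factor that insulin keeps out of the nucleus, spans 19133 bases and had 10437, 10127 and 10497 counts in normal and 12340, 8455 and 7752 in diabetic libraries, more than the 4386 to 5990 counts of its host. MSTRG.3816 in *Igf1r*, the receptor of insulin-like growth factor, had 4626 to 13628 counts and a log2 fold change of 0.01. Its lowest counts were 6039 in normal replicate 2 and 4626 in diabetic replicate 3. There the opposite MSTRG.3817 had 4955 and 4670 counts, against 667 to 980 in the other libraries. Counts of both together ran from 9296 to 14295. In *Gsk3b*, the kinase that restrains glycogen synthesis, MSTRG.10625 had 4.36 FPKM and -0.10, and in *Tsc2*, a brake on mTOR, MSTRG.7260 had 6.65 FPKM and -0.02. Of 55 genes of the NOD-like and Toll-like receptor pathways, 4 held 5 fragments, 3 positive and 2 negative. Of the 33 pyroptosis genes that the study lists, which it chose on these samples, 29 have a row and 4 held 8 fragments, 3 positive and 5 negative. Scaled to FPKM, 1 of the 8 was higher and 1 lower in diabetic libraries without overlap of the groups. Over all loci 3.94% were higher and 5.72% lower without overlap. The lists of junction, stromal and corneal endothelial genes each had 1 lower fragment without overlap. That of the NOD-like and Toll-like receptor pathways had 1 higher. In *Casp8*, the initiator caspase of extrinsic cell death, MSTRG.45697 had 1651, 1843 and 1839 counts in normal and 1571, 1573 and 1820 in diabetic libraries, 2.36 times the host level, and MSTRG.45698 had 3664, 3139 and 3334 against 4186, 4328 and 3291. The latter was the higher one of the 8, at 3.33 to 3.78 FPKM in normal and 3.94 to 5.67 FPKM in diabetic libraries. In *Bcl2*, which blocks cell death, the fragments MSTRG.12771 and MSTRG.12781 had 5.18 and 4.08 FPKM and log2 fold changes of 0.00 and -0.28 (limma adjusted p of 1 and 0.953), and MSTRG.12781 was the lower one.

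Among other lists, the stromal collagen gene *Col5a1* held MSTRG.27941 (24 to 62 counts, log2 fold change -0.37) and the vascular gene *Erg* MSTRG.10238 (132 to 299 counts, -0.27). The pigment cell gene *Pmel* was overlapped by MSTRG.39454, which spans chr7:3078180-3152005. The last had 43 counts in normal replicate 1 and 1874 to 4990 in the other libraries. No sense fragment lay in a gene of the lists of lens, macrophage and dendritic, lymphocyte and mast, Schwann and nerve, or goblet cells, of immediate early and stress genes, of oxidative stress genes, of cytosolic ribosomal proteins (47 with a row) or of splicing factors (39 with a row).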

How the data were processed

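RNA of scraped corneal epithelium from 3 normal and 3 diabetic rat libraries was analysed. The submitters' processing notes name cutadapt, FastQC, Bowtie2 and the build rn6, without versions. The assembler, the counter and the strand setting are not given in the sources used. The authors deposited raw read counts and FPKM per locus. Where the count is 0 the deposited FPKM hold a placeholder (86380 values), set to 0 here.

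Hosts were rows typed exactly protein_coding; allowing joined types gives 2411 fragments. Counted length came from count over FPKM, scaled in each library on 2539 loci without strand (mean FPKM of at least 2), whose implied length was 0.998 to 1.01 times the true one (5th to 95th percentile). log2(FPKM + 1) was quantile-normalized over 42551 loci and tested with limma 3.58.1 in R 4.3.3, the package of the study (normalization, pseudocount and eBayes with trend were chosen here); for the ratio to the host, without trend, over pairs of sense fragment and host. The counts were tested with edgeR 4.0.16 and DESeq2 1.42.0, which gave no adjusted p for 13 fragments. The tests were run on simulated data, where DESeq2 made many more false calls than limma or edgeR. There limma and edgeR missed most of the changes that had been set. Single values were compared by exact permutation (scipy 1.17.1, Python 3.11.15). Depth was 62288901 to 87040253 counts per library.

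The members, the 18 gene lists (474 genes) and the tests were chosen with earlier results of these data known. Named were fragments passing any tool, up to 10 each without overlap of smallest p, of smallest ratio p, of highest FPKM, of highest ratio and with 0 beside over 100 counts, up to 5 of lowest ratio, any with no counts in 1 group and 50 in each library of the other, the 5 hosts of most fragments and up to 4 fragments per list; the opposite-strand pairs other than that in *Dut*, MSTRG.18249, MSTRG.41847 and the group of Zfp hosts were chosen after values were seen. Other normalizations, pseudocounts, filters, tools, hosts and left-out libraries were tried, 5 of them chosen after seeing the data. Fragment sequences were not used here.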

Additional observations from a re-analysis of the deposited data

How the results depend on the processing

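Of the 2207 fragments 2032 had over 100 counts in some library, but 3 libraries a group leave the spread poorly known, and the strand setting of the libraries is not known. The count of fragments passing between the groups was 1 under every other normalization, pseudocount, filter and trend setting and in edgeR, 1 to 2 with a library left out (2 without normal replicate 1), 6 in DESeq2 and, in an alternative chosen after seeing the data, 0 when summed with the opposite strand. The count of passing ratios was 1 to 2 with a library left out (2 without normal replicate 1, without normal replicate 2 and without diabetic replicate 1) and 1 otherwise. The *Dut* fragment passed in all 6 leave-outs, with log2 fold changes from -4.03 to -3.85. Its counts were 0 in every diabetic library, so leaving out a library could not change that pattern. Over 21 tests of named fragments and 364 alternatives, 357 kept direction and side of the threshold; 5 fragments passed in DESeq2 alone, the ratio of MSTRG.20168 in *Prtfdc1* passed without normal replicate 2 (-4.03, limma adjusted p = 0.0184), and the *Dut* fragment was lost in the sum (-0.82). The difference in fragments at 0 (0.333) turned to -1.33 at a mean FPKM of at least 1, to -1.0 for counts under 3, and ran from -1.33 to 2.17 with a library left out. The smallest p of the exact permutation test in these settings was 0.5. This test could not reach 0.05, as 3 against 3 libraries cannot give a p under 0.1 and fewer cannot go lower. With a library left out the share at 0 differed from antisense loci by -0.934 to -0.797, from loci outside genes by -1.59 to -1.41 and from protein-coding loci by 0.321 to 0.399 percentage points, where 5 libraries cannot give a p under 0.0625. The cause of these changes was not tested except where fewer libraries set the smallest p. A replicate block left 1 passing fragment and 1 passing ratio; same-numbered libraries correlated by -0.00923, 0.0251 and 0.0323 in their deviations from the group means, so they share only a number, and not every library correlated best with its own number.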
